A study of Mus musculus with 32 samples.

Results

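Ribosome biogenesis factors are the proteins that transcribe ribosomal RNA, modify and cut it, and fold it with ribosomal proteins into the small and large subunits. A list of 50 such genes was followed in mouse embryonic fibroblasts (MEFs) that had been immortalized, that is, cells of embryonic connective tissue that divide without limit. A member was taken by its gene symbol in the platform annotation, updated through the gene ID, and its brightest probe on average was used. Of the 50 genes, 42 had a named probe and 36 passed a filter on dim probes, out of 10903 genes tested. KO cells had lost Spry1, Spry2 and Spry4 (Spry124-/-), and WT cells carried the same genes floxed on both alleles (Spry124 fl/fl). All cells were starved of serum in DMEM with 0.2% BSA, 100 U/mL penicillin and 100 ug/mL streptomycin, and were then given FGF, a growth factor. Each genotype was profiled at 0 min on 4 arrays, and at 15, 60, 120 and 240 min on 3 arrays each, 32 arrays in all. The replicates are labelled biological, with no word on separate cultures or on whether a genotype is more than 1 line, so p-values cover only the spread among these arrays, part of which may be technical. The labels do not state the age of the embryos, how the genes were deleted, or which FGF was given at what dose.

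Ribosomes are assembled in the nucleolus. RNA polymerase I makes a long precursor of ribosomal RNA there, small nucleolar ribonucleoproteins (snoRNPs) modify it, and a large particle called the small subunit processome cuts and folds its first part while other factors build the large subunit around the rest. The pathway is known to follow growth signals, and Myc, a transcription factor induced by serum and growth factors, is known to bind many of its genes. Sprouty proteins are feedback inhibitors of signalling from receptor tyrosine kinases such as the FGF receptors.

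KO arrays detected 11516 to 12470 probes above the negative controls, against 11319 to 11978 on WT arrays. Of the deleted genes, Spry1 and Spry2 were detected on 2 arrays each. Spry4 was detected in KO cells on 1 of 4 arrays at 0 min, 3 of 3 at 120 min and 0 at other times, and in WT cells on all arrays at 0, 60, 120 and 240 min and 0 of 3 at 15 min. Spry3, which the labels do not name as deleted, was detected on 0 KO arrays and on every WT array. The labels do not say where these probes lie relative to the deleted parts, and a probe outside them checks nothing. Of 10 fibroblast markers, 9 had a probe and 7 were detected on all 32 arrays, and the summed level of the 9 was 12637 to 15935 on KO arrays and 8944 to 11547 on WT arrays (linear intensity). The 4 leukocyte markers with a probe were each detected on fewer than 3 arrays. Of 6 epithelial markers with a probe, Krt18 and Krt5 were detected on 0 arrays, and the summed level of the 4 that could be tested was 106.3 to 160.3 on KO arrays and 179.9 to 289.8 on WT arrays, with Krt8 at a log2 difference of -1.73. Of 5 endothelial markers with a probe, Cdh5 and Emcn were detected on 0 arrays, and the sum of the 2 that could be tested was 44.98 to 72.88 on KO arrays and 42.03 to 56.91 on WT arrays. All these sums include the offset of 16 added to each value before normalization. Sums of dim markers are therefore in part offset and understate the ratio between genotypes. The part of these markers in the results was not tested. The cells were profiled in bulk, so fewer cells of a type and less RNA per cell cannot be told apart.

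The promoters of 4 members are shown. By brightest probes, Pes1 had the largest difference between genotypes averaged over the times, Noc4l had the largest at 0 min, and Nop2 had the largest response to FGF at 240 min. Tsr1 was among the 5 members whose course over time differed between genotypes by an F-test. It did not lead them, since its adjusted p was the highest of the 5 (0.0308). Each sequence runs 5′ to 3′ on the gene's own strand, from 250 bases before the annotated start to 30 bases after it (280 bases, RefSeq, GRCm38.p6). Capitals mark CACGTG, the canonical E-box, a motif that Myc with its partner Max and other factors of the same family bind; it reads the same on both strands. The windows are chr11:3963725-3964004, + strand, for Pes1; chr6:125131633-125131912, + strand, for Nop2; chr11:74897830-74898109, + strand, for Tsr1; and chr5:110653353-110653632, - strand, for Noc4l.
Pes1: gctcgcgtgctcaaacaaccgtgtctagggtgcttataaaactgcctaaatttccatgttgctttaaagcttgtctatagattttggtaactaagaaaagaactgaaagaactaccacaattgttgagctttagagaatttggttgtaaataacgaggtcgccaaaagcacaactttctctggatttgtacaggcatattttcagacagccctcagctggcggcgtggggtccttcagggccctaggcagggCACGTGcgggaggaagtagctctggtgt
Nop2: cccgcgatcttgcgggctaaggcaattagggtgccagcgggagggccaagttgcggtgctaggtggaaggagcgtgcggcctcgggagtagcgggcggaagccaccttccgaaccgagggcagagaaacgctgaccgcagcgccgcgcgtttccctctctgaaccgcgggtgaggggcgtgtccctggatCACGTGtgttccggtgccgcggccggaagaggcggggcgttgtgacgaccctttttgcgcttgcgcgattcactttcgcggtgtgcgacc
Tsr1: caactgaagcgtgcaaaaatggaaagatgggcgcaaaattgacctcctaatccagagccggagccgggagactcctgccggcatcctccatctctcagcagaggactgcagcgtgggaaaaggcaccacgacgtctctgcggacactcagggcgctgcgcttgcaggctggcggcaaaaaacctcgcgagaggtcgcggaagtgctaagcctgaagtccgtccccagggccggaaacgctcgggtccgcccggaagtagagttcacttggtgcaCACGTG
Noc4l: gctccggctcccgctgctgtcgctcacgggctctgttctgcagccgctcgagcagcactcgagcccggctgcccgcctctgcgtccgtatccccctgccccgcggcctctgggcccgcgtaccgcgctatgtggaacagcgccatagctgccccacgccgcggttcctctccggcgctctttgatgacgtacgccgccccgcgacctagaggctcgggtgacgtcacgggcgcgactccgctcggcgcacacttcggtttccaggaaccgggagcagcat
The motif starts at base 3 after the start in Pes1, 60 bases before it in Nop2 and at base 25 after it in Tsr1, and the window of Noc4l has none. Of the other members called by the F-test, Imp3, Ddx21 and Utp15 had no CACGTG in their windows, and Rrp12 had no window in the RefSeq table. In full windows of 300 bases, from 250 before to 50 after the start, 9 of the 44 members in the RefSeq table (20.5%) held at least 1 CACGTG, and so did 5 of the 30 tested members found there (16.7%). These 5 were Pes1, Nop2, Tsr1, Imp4 and Mybbp1a. The share was 11.5% over the genes tested on the arrays (939 of 8151) and 8.09% over all genes in the table. A match is a run of letters, and no binding was measured.

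At 0 min, before FGF, most of the ribosome biogenesis factors were lower in KO than in WT cells. Of the 36 tested, 22 were lower, 2 were higher and 12 were not called (limma, Benjamini-Hochberg adjusted p under 0.05 over all genes tested). Of all 10903 genes tested, 45.8% were called at this time, 23.7% lower and 22.2% higher, so the genotypes differed in nearly as many genes either way while the members called were mostly lower. The median log2 difference (KO minus WT) was -0.36 over the members and -0.02 over all genes. The direction of the members' median was the same under both other scalings of the arrays, at -0.44 with the median of the kept probes and -0.26 with the median of all probes, where the median of all genes lay at -0.11 and 0.07. The groups did not overlap for 20 members that were lower and 2 that were higher, against 19.8% and 19.7% of all genes.

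By role, the member of RNA polymerase I, 4 of 6 snoRNP core proteins, 6 of 11 small subunit factors, 8 of 13 large subunit factors and 3 of 5 other nucleolar proteins were lower in KO cells at 0 min. Polr1a, the largest subunit of RNA polymerase I, was lower by a log2 of -0.58 ± 0.11 (SE; adjusted p = 4.01e-05). Among snoRNP proteins, Nhp2 of the pseudouridine-guiding particles stood at -0.59 ± 0.08 (adjusted p = 2.13e-07) and Fbl, the methyltransferase of the methylation-guiding particles, at -0.55 ± 0.08 (adjusted p = 1.13e-06). Tsr1, which acts late in the making of the small subunit, was lower by -0.66 ± 0.10 (adjusted p = 5.6e-06). Of the other nucleolar proteins, Mybbp1a stood at -0.51 ± 0.08, the RNA helicase Ddx21 at -0.47 ± 0.07 and nucleophosmin (Npm1), a chaperone of the nucleolus, at -0.34 ± 0.07 (adjusted p = 1.12e-05, 5.71e-06 and 0.000297). Wdr75, a small subunit factor, was called at 0 min (-0.19 ± 0.08, adjusted p = 0.0432) but not without replicate C of WT at 0 min (adjusted p = 0.140); the other 23 calls held without any 1 array.

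The 6 largest changes at 0 min belonged to small and large subunit factors. Noc4l, a partner of Nop14 in the small subunit processome, had a log2 intensity of 8.33, 8.36, 8.29 and 8.29 on the KO arrays, against 9.29, 9.27, 9.30 and 9.37 on the WT arrays. All 4 KO arrays lay below all 4 WT arrays, by close to a log2 of 1 (-0.99 ± 0.07, 1.98-fold lower, adjusted p = 3.65e-12). Pes1, which with Bop1 and Wdr12 forms a complex needed for the large subunit, was 10.01, 9.86, 9.80 and 10.16 in KO cells and 10.94, 10.85, 10.89 and 10.86 in WT cells. The groups did not overlap, and the highest KO array was replicate D (-0.93 ± 0.07, adjusted p = 5.56e-12). Ebna1bp2, a scaffold of the early large subunit, was 8.99, 8.91, 8.90 and 9.20 in KO cells, against 9.83, 9.92, 9.87 and 9.75 in WT cells. Replicate D was again the highest KO array, still below every WT array (-0.84 ± 0.09, adjusted p = 7.74e-09). Other, much dimmer probes of Ebna1bp2 stood at -0.20 and -0.19 and were not called (adjusted p = 0.319 and 0.343).

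Gnl2, a nucleolar GTPase of the large subunit, was dimmer and more spread, at 7.76, 7.25, 7.52 and 7.42 in KO cells and 8.03, 8.21, 8.08 and 8.49 in WT cells. The highest KO array, replicate A, came close to the lowest WT array without reaching it (-0.72 ± 0.14, adjusted p = 0.000125). Rrp12, which takes part in the maturation and export of the subunits, was 9.14, 8.97, 9.06 and 9.07 in KO cells, against 9.76, 9.91, 9.55 and 9.87 in WT cells. The low WT array was replicate C, and it lay above all KO arrays (-0.71 ± 0.08, adjusted p = 2.63e-08). Rrp1b, a nucleolar protein of the large subunit pathway, was 7.90, 7.98, 7.97 and 7.89 in KO cells and 8.62, 8.65, 8.58 and 8.58 in WT cells. Each genotype kept within a narrow band, and the bands did not meet (-0.67 ± 0.09, adjusted p = 8.21e-07).

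**Figure D1:**
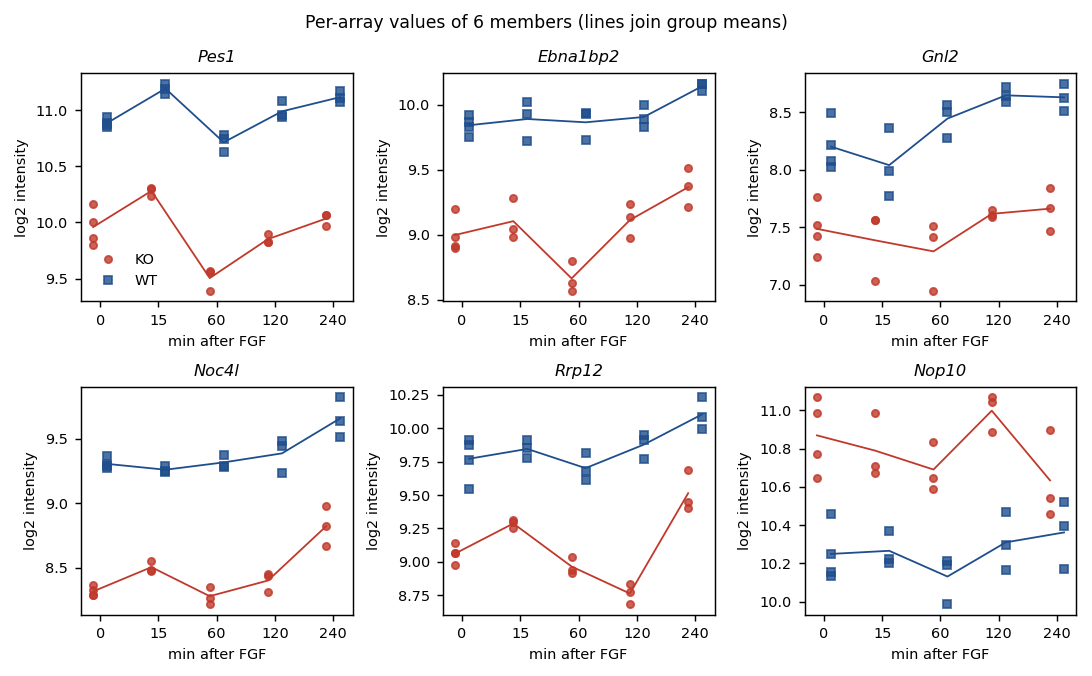
Log2 intensity of 6 members on each array (vertical axis, a different range in each panel) at 0, 15, 60, 120 and 240 min after FGF (horizontal axis, evenly spaced by time point). Points are arrays, KO in red circles and WT in blue squares, and lines join group means; Pes1, Ebna1bp2, Gnl2, Noc4l and Rrp12 lie lower in KO cells at every time and Nop10 lies higher at 0, 15, 60 and 120 min.

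A few members went the other way. Nop10, a small protein of the pseudouridine-guiding snoRNPs, was 11.07, 10.65, 10.77 and 10.99 in KO cells at 0 min, against 10.25, 10.15, 10.46 and 10.13 in WT cells, with no overlap (0.62 ± 0.11, adjusted p = 3.51e-05). It was also called higher in KO at 15, 60 and 120 min, by 0.52, 0.56 and 0.69, and stood at 0.27 ± 0.13 at 240 min (adjusted p = 0.0869). The call at 60 min was lost under both other scalings of the arrays and with the mean of its probes, which also ended the call at 15 min. A second, much dimmer probe of Nop10 was not called at 0 min (0.20, adjusted p = 0.336). Imp3, which holds the U3 snoRNA on the ribosomal RNA, was 11.13, 11.16, 11.34 and 11.12 in KO cells, against 10.77, 10.80, 10.85 and 10.72 in WT cells at 0 min (0.40 ± 0.07, adjusted p = 8.63e-06). It was called higher at 15, 60 and 120 min too (0.54, 0.26 and 0.20), but both other scalings ended the calls at 60 and 120 min, and the call at 120 min was lost in all 6 fits without 1 of its arrays. Gar1, another protein of the same snoRNPs as Nop10 and Nhp2, was called higher by 0.32 ± 0.10 at 15 min (adjusted p = 0.0103) and by 0.30 ± 0.10 at 240 min (adjusted p = 0.0144). The call for Gar1 at 15 min was lost without replicate B of WT at 15 min (adjusted p = 0.0610) and with median scaling over all probes. Its call at 240 min was lost without replicate C of KO at 240 min (adjusted p = 0.0868) and under both other scalings. Nhp2, the third tested protein of these snoRNPs, was called lower in KO at all 5 times.

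The lower level in KO cells was seen at every time. Called lower were 18 members at 15 min, 26 at 60 min, 27 at 120 min and 20 at 240 min, while 3, 2, 2 and 1 were called higher. Of all genes tested, 20.9%, 21%, 22.6% and 22% were called lower at these times, 19.1%, 20.9%, 21.2% and 21.9% higher, and 39.9%, 42%, 43.8% and 43.9% either way. KO arrays all lay below WT arrays for 19, 26, 29 and 23 members and above them for 3, 3, 3 and 1, against 26.8%, 24.9%, 27% and 24.7% of all genes below and 24.9%, 24.4%, 25.1% and 24.4% above. Without any 1 array, 17 of 21, 27 of 28, 25 of 29 and 20 of 21 of these calls held. The members' median difference was -0.23 at 15 min, -0.58 at 60 min, -0.57 at 120 min and -0.40 at 240 min. 25 of the 36 members had a negative difference at all 5 times, and 16 were called lower at all 5, against 10.1% of all genes (0 were called higher at all 5, against 11.5%). These 16 were Fbl, Nhp2, Rrp12, Nop14, Noc4l, Pes1, Bop1, Rrp1b, Rrs1, Ebna1bp2, Ftsj3, Gnl2, Gnl3, Npm1, Mybbp1a and Ddx21. The call of Ftsj3 at 15 min held in 1 of 6 fits without 1 array (adjusted p up to 0.165). It was also lost with no filter on dim probes. Median scaling over all probes ended the calls of Ftsj3 at 0 and 15 min. Gnl3 (nucleostemin) and Gnl2 are related GTPases, Rrs1 takes part in placing the smallest ribosomal RNA of the large subunit, and Ftsj3 is a methyltransferase of the ribosomal RNA precursor.

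**Figure D2:**
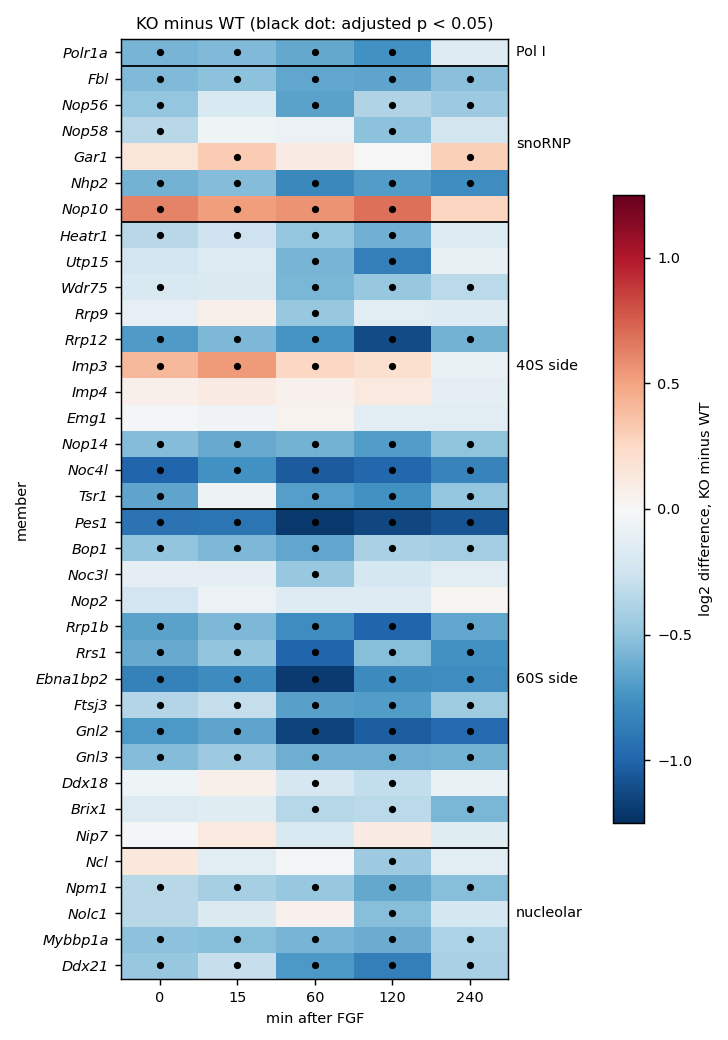
Log2 difference KO minus WT (colour) of the 36 tested members (rows, by role) at 0, 15, 60, 120 and 240 min after FGF (columns). Black dots mark adjusted p under 0.05, and 16 members carry a dot in blue, lower in KO, at all 5 times; the red calls are Nop10, Imp3 and Gar1, of which those at 60 and 240 min and that of Imp3 at 120 min were lost under both other scalings of the arrays, and that of Gar1 at 15 min under one of them.

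Averaged over the 5 times, 30 of the 36 members were lower in KO cells, 3 were higher (Nop10, Imp3 and Gar1) and 3 were not called (Emg1, Imp4 and Nip7). This contrast called 67.4% of all genes, 35.6% lower and 31.8% higher. The averaged difference was largest for Pes1 (-1.05 ± 0.03, adjusted p = 7.52e-21), Noc4l (-0.92 ± 0.04, adjusted p = 5.55e-19), Gnl2 (-0.91 ± 0.07, adjusted p = 3.88e-12) and Ebna1bp2 (-0.88 ± 0.04, adjusted p = 2.8e-16). For the small subunit, Rrp12 stood at -0.74 ± 0.04 and Nop14, the processome partner of Noc4l, at -0.59 ± 0.05. Nhp2 stood at -0.68 ± 0.04, Fbl at -0.58 ± 0.04 and Polr1a at -0.54 ± 0.05. Among the other nucleolar proteins, Ddx21 stood at -0.55 ± 0.04, Mybbp1a at -0.53 ± 0.04 and Npm1 at -0.48 ± 0.04. Nop10 averaged 0.53 ± 0.06, Imp3 0.26 ± 0.03 and Gar1 0.18 ± 0.04 (adjusted p = 0.000641), and the call of Gar1 was lost under both other scalings. The second, dimmer probe of Nop10 averaged 0.01 and was not called (adjusted p = 0.886). Nop2, a methyltransferase of the large subunit RNA, was called at -0.12 ± 0.05 (adjusted p = 0.0428), but its probes were called in opposite directions and the call held in only 12 of 32 fits without 1 array (adjusted p up to 0.0964, without replicate A of KO at 60 min). Nucleolin (Ncl), a chaperone of ribosomal RNA, was called at -0.13 ± 0.05 (adjusted p = 0.0279) and held in 29 of 32 such fits (adjusted p up to 0.0616, without replicate A of WT at 240 min). A second probe of Ncl, nearly as bright, stood at 0.05 and was not called (adjusted p = 0.411). Nip7 was not called by its brightest probe, but a second, much dimmer one was called lower (-0.30, adjusted p = 0.00019). Second probes of Emg1 and Imp4 were not called (adjusted p = 0.110 and 0.196).

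The mean log2 intensity of the 36 members per array gives the same course in 1 value. In KO cells it was 9.41 ± 0.06 at 0 min, 9.45 ± 0.03 at 15 min, 9.26 ± 0.01 at 60 min, 9.38 ± 0.04 at 120 min and 9.67 ± 0.02 at 240 min (SD; n = 4 at 0 min and 3 at other times). In WT cells it was 9.76 ± 0.03, 9.71 ± 0.05, 9.74 ± 0.02, 9.88 ± 0.02 and 10.04 ± 0.03 at the same times. Every KO array lay below every WT array of its time, and the highest KO array at 240 min (9.69) also lay below the lowest WT array at 0 min (9.73).

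**Figure D3:**
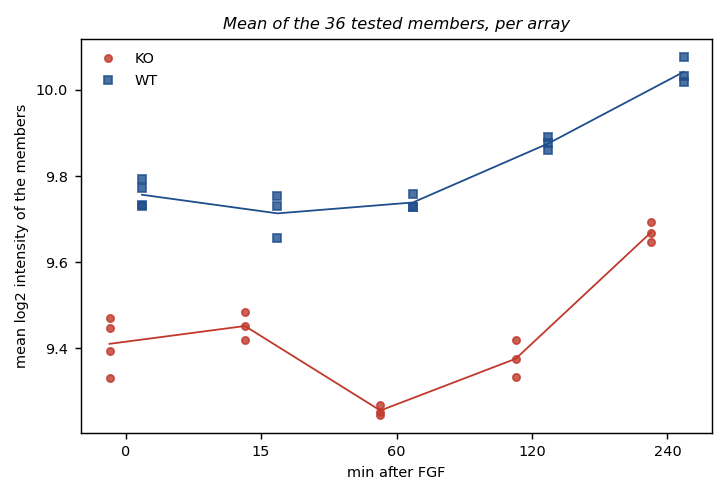
Mean log2 intensity of the 36 tested members on each array (vertical axis) at each time after FGF (horizontal axis, evenly spaced by time point). Points are arrays, KO in red circles and WT in blue squares, and lines join group means; KO arrays lie below WT arrays at all times, with their lowest values at 60 min, and both genotypes are highest at 240 min.

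The response to FGF was small for the members until 240 min. At 15 min, 1 member was called in KO cells and 2 in WT cells, against 0.816% of all genes in KO (0.394% higher, 0.422% lower) and 2.29% in WT (1.14% higher, 1.16% lower). Pes1 was higher at 15 min than at 0 min in both genotypes, at 10.31, 10.23 and 10.30 on the KO arrays and 11.24, 11.15 and 11.19 on the WT arrays. These arrays lay above all 0 min arrays of the same genotype (0.32 ± 0.07 in KO, adjusted p = 0.0324; 0.31 ± 0.07 in WT, adjusted p = 0.0232). Tsr1 was lower at 15 min in WT cells, at 7.77, 7.95 and 7.95 against 8.43, 8.44, 8.13 and 8.34 at 0 min (-0.45 ± 0.11, adjusted p = 0.0303). Each of these 3 calls was lost under median scaling over all probes and without replicate A of its genotype at 15 min (adjusted p = 0.168, 0.0977 and 0.137).

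At 60 min, 6 members were lower in KO cells than at 0 min and 0 were higher, against 2.47% of all genes lower and 3.19% higher (5.66% either way). In WT cells, 0 of 36 were called by limma (4 had an unadjusted p under 0.05), against 5.25% of all genes (3.15% higher, 2.1% lower). Pes1 fell the most in KO cells, to 9.39, 9.56 and 9.56, below all KO arrays at 0 min (-0.45 ± 0.07, adjusted p = 0.000192). Its partner Bop1 stood at -0.39 ± 0.10 (adjusted p = 0.0177), Rrp9, which binds the U3 snoRNA, at -0.37 ± 0.09 (adjusted p = 0.0191), and Ebna1bp2 at -0.33 ± 0.10 (adjusted p = 0.0397). Nhp2 (-0.28 ± 0.08, adjusted p = 0.0423) and Wdr75 (-0.27 ± 0.08, adjusted p = 0.0498) completed the 6. In all, 33 of 36 members had a negative value in KO cells at 60 min, against 52.4% of all genes. The members' median was -0.13, and -0.20 and -0.30 with the median of the kept probes and of all probes. The median of all genes lay at -0.01, and at 0.003 and -0.10 under these 2 scalings. The call of Pes1 alone held without any 1 array; 1 member was called without replicate D of KO at 0 min, 2 without replicate A of KO at 0 min and 3 without replicate C of KO at 60 min.

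At 120 min, 1 member was higher and 4 were lower in KO cells, against 6.14% and 9.03% of all genes (15.2% either way). Lower were Wdr75 (-0.35 ± 0.08, adjusted p = 0.00346), Ncl (-0.34 ± 0.11, adjusted p = 0.0278), Npm1 (-0.33 ± 0.08, adjusted p = 0.00457) and Rrp12 (-0.30 ± 0.09, adjusted p = 0.0184), and Nip7, a large subunit factor, was higher (0.32 ± 0.10, adjusted p = 0.0228). The calls of Wdr75 and Npm1 held without any 1 array. Of 7 such fits, that of Rrp12 held in 5 (adjusted p up to 0.0931, without replicate B of KO at 120 min), that of Nip7 in 4 (up to 0.0962, without replicate B of KO at 0 min) and that of Ncl in 3 (up to 0.112, without replicate A of KO at 120 min). In WT cells at this time, Utp15, a processome protein tied to ribosomal RNA transcription, was the sole call, against 2.04% of all genes called higher and 1.98% lower (4.02% either way). It was 7.36, 7.33 and 7.33 at 120 min, above 6.87, 6.98, 6.64 and 6.95 at 0 min (0.48 ± 0.11, adjusted p = 0.0121), and its call was lost without replicate A of WT at 120 min (adjusted p = 0.0534). Median scaling over all probes moved the median of all genes to -0.21 in the KO response at 120 min, with that of the members at -0.28. Then 17 members were lower and 0 higher, while 3889 of all 10903 genes were called either way.

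At 240 min many members were higher than at 0 min in both genotypes and 0 were lower. In KO cells 18 of 36 were higher, against 10.2% of all genes higher and 11.1% lower (21.3% either way). In WT cells 22 of 36 were higher, against 7.66% higher and 8.33% lower (16% either way). The median response was 0.26 in KO and 0.32 in WT. Under median scaling over all probes it was 0.13 in KO and 0.36 in WT, where the median of all genes lay at -0.08 and 0.01. That scaling called 7 members in KO and 17 in WT, against 2086 and 1202 of all 10903 genes either way. In KO the share of members called was then close to that of all genes. Arrays at 240 min lay above all arrays at 0 min for 22 members in KO cells and 26 in WT cells, against 13.1% and 11.1% of all genes, and below them for 0 members in either, against 13.6% and 11.3%. Called higher in both genotypes were 12 members, against 3.28% of all genes: Nop56, Gar1, Heatr1, Rrp9, Rrp12, Noc4l, Noc3l, Nop2, Rrp1b, Ebna1bp2, Ftsj3 and Ddx18. These are calls of the brightest probe, and dimmer probes of Heatr1, Nop2, Rrp1b and Ebna1bp2 were not all called in both genotypes. Those of Ebna1bp2 were called in neither (0.003 and 0.03 in KO, 0.18 and 0.46 in WT). Of the calls at 240 min, 11 of 18 in KO and 11 of 22 in WT held without any 1 array.

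By brightest probes, the largest response was that of Nop2 in KO cells, with 8.75, 8.77 and 8.76 at 240 min against 8.19, 8.02, 7.90 and 8.26 at 0 min. The arrays at 240 min lay close together, well above those at 0 min (0.67 ± 0.11, adjusted p = 6.75e-05). Dimmer probes of Nop2 gave 0.52 (adjusted p = 0.00843) and 0.26 (adjusted p = 0.178) in KO. A dimmer probe of Heatr1 gave 1.02 in KO (adjusted p = 6.77e-05) and 0.33 in WT (adjusted p = 0.231). In WT cells Nop2 was 8.76, 8.56 and 8.90 at 240 min against 8.42, 8.25, 8.29 and 8.37 at 0 min, a smaller step without overlap (0.41 ± 0.11, adjusted p = 0.0129) that was lost without replicate C of WT at 240 min (adjusted p = 0.0996). Heatr1, a large processome protein also needed for transcription by RNA polymerase I, was 10.52, 10.51 and 10.57 in KO cells at 240 min against 9.94 ± 0.05 at 0 min (SD, n = 4). In WT cells it was 10.72, 10.68 and 10.71 at 240 min against 10.39, 10.22, 10.18 and 10.36 at 0 min. Neither genotype overlapped. The rise was 0.60 ± 0.09 in KO (adjusted p = 7.76e-06) and 0.41 ± 0.09 in WT (adjusted p = 0.000939). Gar1 was 11.44, 11.34 and 11.58 in KO cells at 240 min against 10.89, 10.69, 11.14 and 10.94 at 0 min, with no overlap (0.54 ± 0.09, adjusted p = 6.94e-05; 0.40 ± 0.09 in WT, adjusted p = 0.00258).

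By brightest probes, Rrp9 had the largest response in WT cells, with 9.05 on each array at 240 min against 8.52, 8.41, 8.66 and 8.50 at 0 min. It was higher by 0.53 ± 0.09 in WT (adjusted p = 0.000131) and by 0.47 ± 0.09 in KO (adjusted p = 0.000427), after its lower level at 60 min in KO. A dimmer probe of Nip7 gave 0.68 in WT at 240 min (adjusted p = 0.000955), against 0.38 with its brightest probe. Noc4l was 8.97, 8.67 and 8.82 in KO cells at 240 min against 8.33, 8.36, 8.29 and 8.29 at 0 min (0.51 ± 0.08, adjusted p = 1.72e-05). Even so, every KO array of Noc4l at 240 min lay below every WT array at 0 min. Noc3l, a factor of the large subunit, was 7.29, 7.60 and 7.36 in KO cells at 240 min against 7.10, 6.61, 6.85 and 7.16 at 0 min, and 7.54, 7.61 and 7.49 in WT cells at 240 min against 6.81, 7.05, 7.18 and 7.15 at 0 min, with no overlap in either (0.49 ± 0.11 in KO, adjusted p = 0.00252; 0.50 ± 0.11 in WT, adjusted p = 0.00252). Others with large responses at 240 min were Imp3 (0.48 ± 0.07) and Rrs1 (0.41 ± 0.14, adjusted p = 0.0447) in WT, and the methylation-guiding snoRNP proteins Nop56 (0.45 ± 0.10 in KO, 0.42 ± 0.10 in WT) and Nop58 (0.43 ± 0.12 in KO, adjusted p = 0.00934; 0.31 ± 0.12 in WT, adjusted p = 0.0748). The call of Rrs1 was lost without replicate B of WT at 240 min (adjusted p = 0.151) and that of Nop58 in KO without replicate C of KO at 240 min (adjusted p = 0.0758).

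Polr1a was called at 240 min in KO cells, at 9.93, 9.77 and 10.15 against 9.37, 9.32, 9.71 and 9.48 at 0 min (0.48 ± 0.11, adjusted p = 0.00264). In WT cells it stood at 0.05 ± 0.11 (adjusted p = 0.820), and the difference of these responses was 0.43 ± 0.16 with an adjusted p of 0.105. Other, dimmer probes of Polr1a were not called in KO cells at 240 min (-0.006, adjusted p = 0.987, and 0.42, adjusted p = 0.108). Ddx21 rose in KO (0.29 ± 0.08, adjusted p = 0.00877), with 0.22 ± 0.08 in WT (adjusted p = 0.0605). Ncl rose in WT (0.37 ± 0.11, adjusted p = 0.0161), with 0.10 ± 0.11 in KO (adjusted p = 0.576); a second probe of Ncl gave 0.02 in both genotypes, and the WT call was lost without replicate A of WT at 240 min (adjusted p = 0.146). Gnl3, Bop1, Npm1, Mybbp1a, Nop10 and Nolc1 were called in neither genotype at this time by their brightest probe. A second, dimmer probe of Gnl3 was called in WT (0.43, adjusted p = 0.0272), and a second, dimmer probe of Mybbp1a in KO (0.55, adjusted p = 0.0126). Nolc1, a chaperone of snoRNPs, was the dimmest tested member, detected on 23 of 32 arrays, while the other 35 were detected on all 32.

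**Figure D4:**
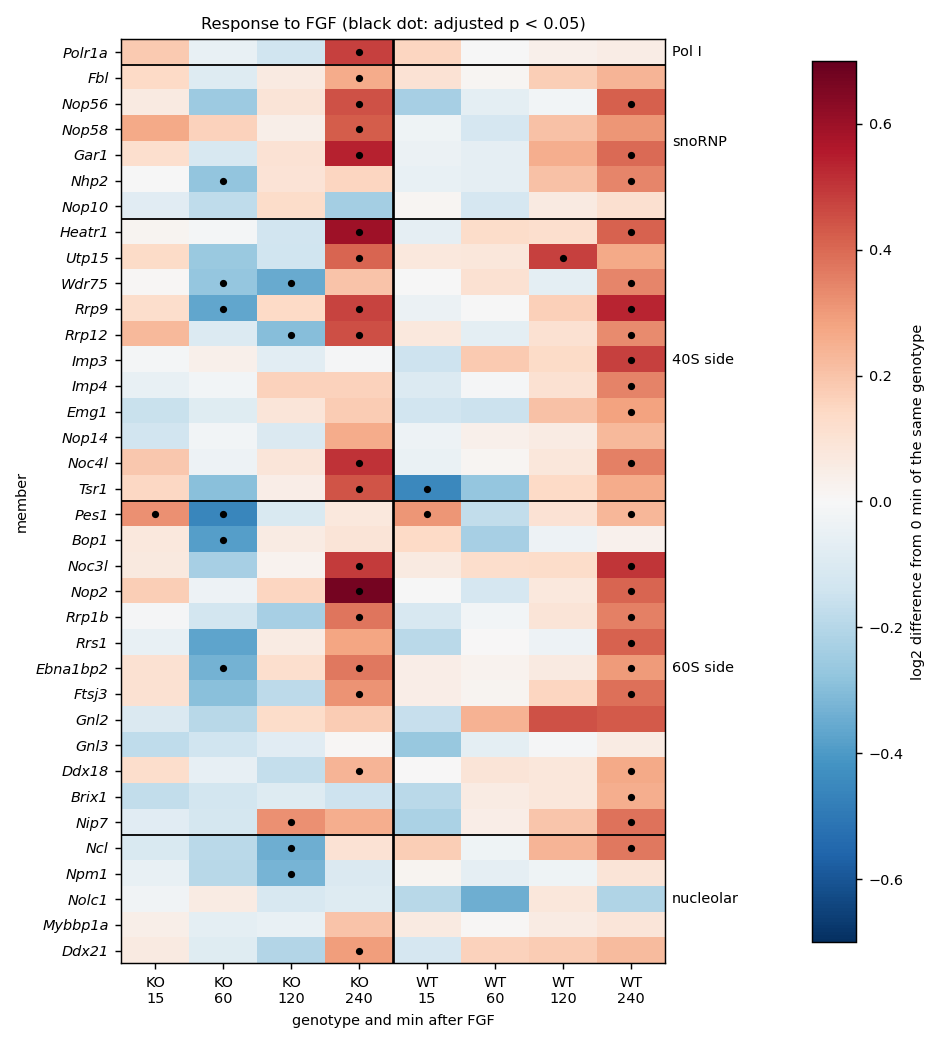
Log2 difference of each time from 0 min of the same genotype (colour) for the 36 tested members (rows, by role), with KO cells in the left block and WT cells in the right (columns, 15 to 240 min). Black dots mark adjusted p under 0.05: 18 members in KO and 22 in WT carry a dot at 240 min, 6 in KO at 60 min, and few at other times.

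**Figure D5:**
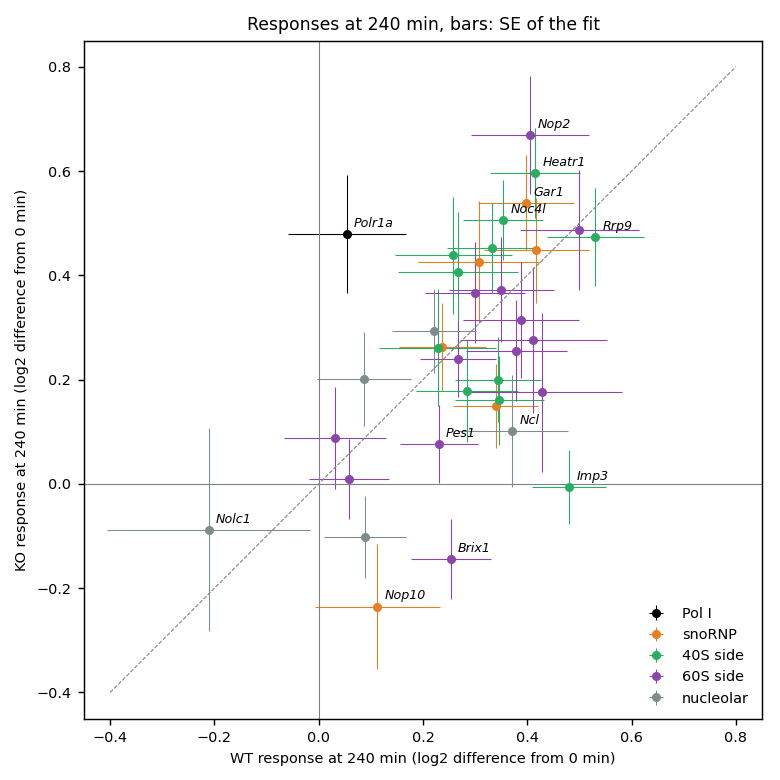
Response at 240 min in KO cells (vertical axis) against that in WT cells (horizontal axis), both as log2 difference from 0 min, for the 36 tested members coloured by role. Bars are standard errors of the fit and the dashed line marks equal responses; Imp3 and Brix1 lie furthest below it and Polr1a furthest above it.

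The step from 120 to 240 min was compared after the responses had been seen. In KO cells 19 members were higher at 240 than at 120 min, 1 was lower (Nop10, -0.36 ± 0.13, adjusted p = 0.0448) and 16 were not called, against 10.2% of all genes higher and 8.73% lower (19% either way). The call of Nop10 held in 2 of 6 fits without 1 of its arrays. In WT cells 6 members were higher and 0 lower, against 4.96% of all genes higher and 4.6% lower (9.56% either way). The median step was 0.34 in KO and 0.16 in WT. The 5 largest steps in KO were those of Rrp12 (0.75 ± 0.09, adjusted p = 1.76e-06), Heatr1 (0.73 ± 0.09, adjusted p = 2.54e-06), Polr1a (0.62 ± 0.12, adjusted p = 0.000637), Rrp1b (0.61 ± 0.11, adjusted p = 0.000212) and Wdr75 (0.55 ± 0.09, adjusted p = 6.17e-05). The 6 members called in WT were Nop56, Wdr75, Rrp9, Imp3, Heatr1 and Noc4l, and with median scaling over all probes 0 members were called. Of 6 fits without 1 array, the calls of Nop56, Wdr75 and Imp3 held in all, that of Noc4l in 3 (adjusted p up to 0.229), that of Rrp9 in 2 (up to 0.0819, both without replicate B of WT at 120 min) and that of Heatr1 in 0 (up to 0.129, without replicate A of WT at 120 min). Without replicate B of WT at 120 min, or replicate C of WT at 240 min, 3 members were called.

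Whether the responses differed between genotypes was tested as the KO response minus the WT response. At 15 and 60 min limma called 0 members (2 and 7 had an unadjusted p under 0.05), against 0.055% of all genes at 15 min (0.0459% higher, 0.00917% lower) and 0.706% at 60 min (0.358% higher, 0.349% lower). At 60 min the values were still mostly negative, in 32 of 36 members with a median of -0.14, against 5517 of all 10903 genes. At 120 min 2 members were called, Utp15 (-0.62 ± 0.16, adjusted p = 0.0447) and Ncl (-0.58 ± 0.15, adjusted p = 0.0432), against 1.86% of all genes (1% higher, 0.862% lower). Utp15 was 6.14, 6.65 and 6.66 in KO cells at 120 min, against 7.36, 7.33 and 7.33 in WT cells, and the lowest of these was replicate A of KO, and its call held in 4 of 14 fits without 1 array (adjusted p up to 0.158, without that array). Ncl was 8.09, 8.22 and 8.18 in KO cells, against 8.56, 8.51 and 8.77 in WT cells, and its call held in 5 of 14 (adjusted p up to 0.130, without replicate C of WT at 120 min). The count at 120 min ran from 0 to 3 when 1 array was left out and was 22 with median scaling over all probes, which moved the median of all genes by -0.26. That scaling called 2516 of all 10903 genes for this difference.

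At 240 min 2 members were called, against 7.86% of all genes (4.32% higher, 3.54% lower). Imp3 was 11.12, 11.33 and 11.09 in KO cells at 240 min, against 11.24, 11.24 and 11.31 in WT cells, so that its higher level in KO at 0 min was no longer seen (-0.08 ± 0.08, adjusted p = 0.406). Its response was -0.01 ± 0.07 in KO and 0.48 ± 0.07 in WT, and their difference was -0.49 ± 0.10 (adjusted p = 0.00218), which held without any 1 array. Brix1, a factor of the large subunit, was 11.72, 11.92 and 11.80 in KO cells at 240 min, against 12.21, 12.43 and 12.49 in WT cells. Its response was -0.14 ± 0.08 in KO and 0.25 ± 0.08 in WT, with a difference of -0.40 ± 0.11 (adjusted p = 0.0216) that held in 9 of 14 fits without 1 array (adjusted p up to 0.0772, without replicate C of WT at 240 min). The call of its WT response held in 4 of 7 such fits (adjusted p up to 0.153, without the same array). A second, slightly dimmer probe of Brix1 gave 0.18 in WT (adjusted p = 0.165) and -0.14 in KO (adjusted p = 0.289). Over the 4 times together, an F-test called 5 of 36 members, against 9.22% of all genes. They were Imp3 (adjusted p = 0.00210), Ddx21 (0.00902), Utp15 (0.0133), Rrp12 (0.0273) and Tsr1 (0.0308). Rrp12 was 8.83, 8.68 and 8.77 in KO cells at 120 min, against 9.77, 9.95 and 9.91 in WT cells, its widest gap between genotypes (-1.12 ± 0.09). Ddx21 was also furthest apart at 120 min (-0.86 ± 0.09). Tsr1 too was furthest apart at 120 min. Like Rrp12 and Ddx21, it had its smallest gap at 15 min (-0.07 ± 0.12, adjusted p = 0.705). It was then 7.76, 7.94 and 7.77 in KO cells and 7.77, 7.95 and 7.95 in WT cells.

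The other genes of the pathway were counted from lists that hold no member. Of 100 further ribosome biogenesis genes, 79 were tested, and 47 (59.5%) were lower and 2 (2.53%) higher in KO at 0 min, against 23.7% and 22.2% of all genes, with a median of -0.29. Leading them were Pwp2, a processome protein (-1.01 ± 0.09), Tcof1, which serves RNA polymerase I (-1.01 ± 0.11), Krr1 (-0.93 ± 0.12) and Pno1 (-0.88 ± 0.09), both factors of the small subunit. At 240 min 27 (34.2%) were higher and 2 lower in KO, against 10.2% and 11.1% of all genes, and 27 were higher and 1 lower in WT, against 7.66% and 8.33%. At 60 min limma called 8 lower in KO (10.1%, against 2.47% of all genes) and 0 in WT. Of 11 tested genes of the RNA exosome, which trims ribosomal RNA, 7 (63.6%) were lower and 1 higher in KO at 0 min, and Exosc10 led at -0.94 ± 0.11. Of 17 tested genes of RNA polymerase III and its factors, 7 (41.2%) were lower and 1 higher at 0 min, nearer to the 23.7% of all genes, with a median of -0.12.

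Myc did not share the members' direction at 0 min. It was higher in KO cells than in WT cells at 0 min (0.45 ± 0.15, adjusted p = 0.0165) and at 15 min (0.70 ± 0.18, adjusted p = 0.00204), near the limit of detection, with detection on 3 of 4 WT arrays at 0 min. At 60 min it had risen over 0 min by 0.93 ± 0.17 in KO (adjusted p = 0.000595) and 1.63 ± 0.17 in WT (adjusted p = 3.51e-08), a difference of -0.71 ± 0.23 (adjusted p = 0.188). Of the 8 tested genes of Myc and its partners, 2 were higher in KO at 0 min, Myc and Max (0.49 ± 0.08), 1 was lower, the Myc antagonist Mxi1 (-0.54 ± 0.15), and 5 were not called. Of all genes tested, 22.2% were higher and 23.7% lower at this time, so the count higher was close to that share.

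The remaining members gave no test. Dkc1, the pseudouridine synthase of the snoRNPs, and Utp3, Bysl, Wdr12, Nop16 and Ddx56 had a named probe that was not detected on at least 3 arrays. Polr1b, Rrn3, Utp14a, Utp18, Utp20, Wdr43, Ddx10 and Noc2l had no named probe here and were not analysed.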

How the data were processed

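Total RNA was hybridised to Illumina mouse bead arrays. The deposited intensity of each probe has values below 0, as after background subtraction, and per the file headers it is not normalized. Beside it stands a deposited detection fraction, read here as 1 minus the detection p-value. The submitters' processing notes name GenomeStudio 1.9.0. Another 192 columns with values per array were left out. A series matrix of the authors' processed intensity served as an alternative. The platform annotation gave 1 symbol to 23978 of 25697 probes and none or several to 1719. Each of these 1719 that passed the filter counted as a gene of its own among the 10903 tested.

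Background correction and normalization used limma's neqc (R 4.3.3, limma 3.58.1: normexp with the detection p-values, offset 16, log2, quantile). Probes with a detection p under 0.05 on at least 3 arrays passed (14716), and a gene took its brightest one. The model, 1 mean for each of the 10 groups, used all 32 arrays (lmFit, eBayes; residual degrees of freedom 22, prior 5.27). Benjamini-Hochberg adjustment ran over 10903 genes, with calls under 0.05. Errors of differences are standard errors of that model. The scripts were tested on simulated data. Replicate letters did not pair the samples: the correlation of deviations over 40 same-letter pairs of groups ran from -0.19 to 0.16, with 5 over 0.1.

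The members, the lists and the tests were chosen with earlier results of these data known. Any member may be named, with values for up to 3 called members of each role per contrast and for those called against the majority; per-array values are given for the 6 largest called changes at 0 min and the 6 largest responses at 240 min, and, chosen after their values were seen, for members whose responses differed between genotypes and a few others. Of other lists, the Sprouty genes, Myc and up to 4 leading genes are named, with Max and Mxi1 added after their values were seen. Alternatives were other scalings, filters, probe rules and background corrections, the series matrix, fits to the groups compared, a replicate block, and leaving out each array. With 3 or 4 arrays a group, their number limits the precision.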

Additional observations from a re-analysis of the deposited data

Results flagged for a closer look

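In the groups of 4 arrays at 0 min, 74 sets of values were examined for an array far from the others (its gap to the nearest one, over the whole range, above Dixon's critical value for 4 samples), which chance gives in about 1 of 20, and 3 were found. Imp3 had a ratio of 0.836 in KO cells, where replicate C was the highest array at 11.34 and the others lay between 11.12 and 11.16. Nip7 had a ratio of 0.916 in WT cells, where replicate C was the highest. Ncl had a ratio of 0.858 in WT cells, where replicate C was the lowest at 8.06 and the others lay between 8.45 and 8.52.

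The response to FGF differed between genotypes (KO minus WT) for Utp15 at 120 min (-0.62), for Ncl at 120 min (-0.58), for Imp3 at 240 min (-0.49) and for Brix1 at 240 min (-0.40), by a test of the difference itself. Over the 4 times together, the F-test gave an adjusted p of 0.0133 for Utp15, 0.0273 for Rrp12, 0.00210 for Imp3, 0.0308 for Tsr1 and 0.00902 for Ddx21. The WT array of Ncl that lay apart at 0 min enters its difference at 120 min, which was lost without it.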

How the results depend on the processing

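Between KO and WT, the counts of called members stayed within 1.5 times of those reported under every alternative run: without any 1 array they ran from 23 to 25 at 0 min, 18 to 20 at 15 min, 27 to 28 at 60 min, 26 to 29 at 120 min, 20 to 22 at 240 min and 31 to 33 averaged. The early responses and the differences of responses moved more, and the cause was not tested. Without any 1 array the count ran from 0 to 2 for the WT response at 15 min, 0 to 2 for WT at 120 min, 0 to 1 for KO at 15 min, 1 to 6 for KO at 60 min, 3 to 6 for KO at 120 min, 0 to 3 for the difference at 120 min, 1 to 3 for the difference at 240 min, 3 to 7 for the F-test and 3 to 5 for WT at 240 against 120 min. Median scaling over the kept probes called 1 member for WT at 15 min, 2 for WT at 120 min, 0 for KO at 15 min and 4 for the difference at 120 min. Median scaling over all probes called 0 for WT at 15 min, 2 for WT at 120 min, 0 for KO at 15 min, 17 for KO at 120 min, 7 for KO at 240 min, 1 for the difference at 60 min, 22 for that at 120 min, 18 for the F-test and 0 for WT at 240 against 120 min; it moved the median of all genes by -0.19 in KO at 120 min and turned Imp3 in KO against WT at 120 min to -0.028 (adjusted p = 0.874). Of all 10903 genes, that scaling called 3889 for KO at 120 min and 2086 for KO at 240 min. It called 2516 for the difference at 120 min and 2063 for the F-test. The mean of a gene's probes called 3 for WT at 120 min, 3 for KO at 60 min and 1 for the difference at 120 min. For that difference the series matrix gave 1, no normexp 1 and no filter 0. Fitting only the groups compared, with fewer samples behind the spread, called 0 for WT at 15 min, 0 for WT at 120 min, 11 for WT at 240 min, 0 for KO at 15 min, 0 for KO at 60 min, 0 for the difference at 120 min, 1 for that at 240 min and 13 for KO at 240 against 120 min.

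With the replicate letter as a block, 1 member was called for WT at 15 min (Pes1, higher), 1 for KO at 60 min and 0 for the difference at 120 min, and no other count moved by over 1.5 times. Averaging replicates A and D at 0 min gave 1, 1 and 0 for these. The chip as a block was not run, since the file names no chip. Signal limits Nolc1 and Myc, which lie near background.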
